A study of Mus musculus with 12 samples.

Results

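The MHC class I presentation and immunoproteasome genes were followed in the liver, gonadal white adipose tissue (WAT) and gastrocnemius of mice given corticosterone (CORT, the main glucocorticoid of rodents). They were 10 genes picked by symbol: the heavy chain genes *H2-K1*, *H2-D1*, *H2-Q6* and *H2-T23*, the light chain gene *B2m*, the peptide transporter genes *Tap1* and *Tap2*, the immunoproteasome genes *Psmb8* and *Psmb9*, and the transactivator gene *Nlrc5*. The gene tables held 22273 symbols in gastrocnemius and 22252 in liver and in gonadal WAT, and all 10 were present in each. All mice were C57BL/6J males with both copies of the glucocorticoid receptor gene *Nr3c1* floxed around exon 3. GRf/f mice carried no Cre, and GRmKO mice carried a Cre transgene under the *Acta1* (skeletal actin) promoter, which removes the functional receptor from muscle fibres and leaves it in other cells. From 8 weeks of age they drank 1% ethanol in water (vehicle), or the same with CORT at 100 µg/mL, for 4 weeks. Each of the 12 groups was 1 library made from the pooled RNA of 3 mice, so no group had a replicate and no test between groups was made. The sources used here do not say whether 1 set of mice gave all 3 tissues.

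MHC class I molecules present peptides made inside the cell to CD8 T cells and are found on nearly all nucleated cells. The proteasome cuts proteins into peptides, the TAP transporter moves these into the endoplasmic reticulum, and a heavy chain folds there around a peptide together with β2-microglobulin. Interferons raise the whole set, in part through NLRC5, and replace the constitutive catalytic subunits of the proteasome by immunoproteasome subunits. Glucocorticoids are known as anti-inflammatory hormones that dampen interferon and NF-κB signalling.

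Of the 10 genes, 8 lie on chromosome 17, in or beside the H2 complex (GRCm38 coordinates throughout), with *B2m* on chromosome 2 and *Nlrc5* on chromosome 8. The heavy chain genes *H2-K1* (chr17:33996017-34000347), *H2-D1* (chr17:35262730-35267499), *H2-Q6* (chr17:35424850-35430055) and *H2-T23* (chr17:36029773-36032855) lie apart from one another. *Psmb9*, *Tap1*, *Psmb8* and *Tap2* sit side by side between chr17:34181987-34216321. *Psmb9* and *Tap1* are transcribed away from each other and their annotated ends overlap by 212 bases, so reads from the overlap could be assigned to either. RefSeq promoter windows (250 bases before the start and 50 after it, build GRCm38.p6) were given for 8 of the genes and not used here for *Tap2* and *Nlrc5*. The stretches just before the start of *H2-K1* (chr17:34000348-34000527, minus strand), *H2-Q6* (chr17:35424670-35424849, plus strand) and *B2m* (chr2:122147507-122147685, plus strand) are shown because these promoters carry several of the named elements of class I control. Of the 4 elements marked, *H2-K1* holds all, *H2-Q6* has no TGACG match and *B2m* no enhancer A match. Capitals mark every match, on either strand, to enhancer A (the first run of capitals in H2-K1 and H2-Q6), the interferon response element core (AANNGAAA), TGACG and CCAAT.
H2-K1: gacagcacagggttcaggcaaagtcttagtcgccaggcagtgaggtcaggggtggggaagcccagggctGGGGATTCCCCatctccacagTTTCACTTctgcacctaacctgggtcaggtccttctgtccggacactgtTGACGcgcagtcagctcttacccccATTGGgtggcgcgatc
H2-Q6: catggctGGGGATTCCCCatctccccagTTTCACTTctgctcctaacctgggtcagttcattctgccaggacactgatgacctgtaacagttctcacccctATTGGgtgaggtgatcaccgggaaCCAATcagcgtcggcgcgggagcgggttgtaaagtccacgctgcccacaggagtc
B2m: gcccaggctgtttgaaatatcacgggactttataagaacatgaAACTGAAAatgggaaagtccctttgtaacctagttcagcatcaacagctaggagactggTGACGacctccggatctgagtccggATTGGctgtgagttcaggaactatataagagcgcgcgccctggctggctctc

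Enhancer A, the NF-κB site of class I genes, and the interferon element stood in the same 29-base arrangement in *H2-K1*, *H2-D1* and *H2-Q6*, and any pair of the 3 shared 28 of the 29 bases. The module is printed for these genes (chr17:34000430-34000458, minus strand, chr17:35262923-35262951, plus strand, and chr17:35424677-35424705, plus strand) with both elements in capitals.
H2-K1 module: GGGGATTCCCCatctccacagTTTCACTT
H2-D1 module: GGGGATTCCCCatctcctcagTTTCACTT
H2-Q6 module: GGGGATTCCCCatctccccagTTTCACTT
Enhancer A was present in 3 of the 8 windows and in 0.0304% of all 32851 promoter windows. The string searched was the class I sequence itself, so matches in heavy chain windows were to be foreseen and these shares measure no enrichment. The interferon element core was present in 5 of 8 and in 21.3% of all, TGACG in 5 of 8 and in 17.8% of all, and CCAAT in 7 of 8 and in 33.8% of all. A palindrome of the glucocorticoid receptor was also searched. It was present in 0 of 8 and in 0.387% of all, a share at which 0 of 8 says little. These are letter matches on both strands in the 250 bases before the RefSeq start, and the motifs do not overlap one another in the stretches shown. That start lies inside the span of the retained transcript for *H2-D1* (by 364 bases), *Psmb8* (474), *Psmb9* (434) and *H2-T23* (154). The *H2-D1* module therefore lies within the annotated gene.

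The libraries held between 19394572 and 20940660 estimated counts. Levels are given as CPM, the share of a library's total count scaled to 1e6, and 3 counts, the limit that a count of 0 allows, correspond to 0.143 to 0.155 CPM. *Nr3c1* in gastrocnemius measured 113 and 90.4 CPM in the GRf/f vehicle and CORT libraries against 46.4 and 35.5 CPM in GRmKO, as the labels give. Marker genes of fibre, hepatocyte and adipocyte were highest in the tissue named. Liver markers in gastrocnemius, at a median of 0.0071% and 0.0035% of their liver level in the GRf/f vehicle and CORT libraries, stood at 0.077% and 0.23% in the GRmKO vehicle and CORT libraries. Adipocyte markers in gastrocnemius stood at 0.545% and 2.73% of their WAT level in GRf/f vehicle and CORT and at 0.502% and 1.82% in GRmKO, and the part of either tissue in the gastrocnemius values was not tested. The gastrocnemius GRmKO vehicle library also stood apart in immune markers: its summed macrophage markers reached 564 CPM, against 174 to 222 CPM in the other gastrocnemius libraries. In bulk tissue, fewer cells of a type and less RNA per cell cannot be told apart.

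Levels of the genes differed widely between tissues. *B2m*, the light chain shared by all class I molecules, was the most abundant, at 139 to 252 CPM in gastrocnemius, 1526 to 1832 CPM in liver and 1855 to 2571 CPM in gonadal WAT. Per kilobase of transcript its median was 181, 2058 and 2584 CPM, against 30.3, 322 and 279 for *H2-K1* and 0.909, 2.81 and 6.39 for *Tap1*, the peptide transporter chain. For 7 of the 10 genes (*H2-K1*, *H2-D1*, *H2-T23*, *B2m*, *Tap1*, *Tap2* and *Psmb9*) each gonadal WAT library lay above each gastrocnemius library. For 6 of them, *Tap2* being the exception, each liver library also lay above each gastrocnemius library. Gonadal WAT and liver overlapped except for *H2-D1*, *B2m* and *Tap2*, which were higher in WAT in every library. *Psmb8* and *Nlrc5* are left out of this order because the transcript retained by the authors differed in gonadal WAT. The share of all genes with these orders was not computed.

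**Figure D1:**
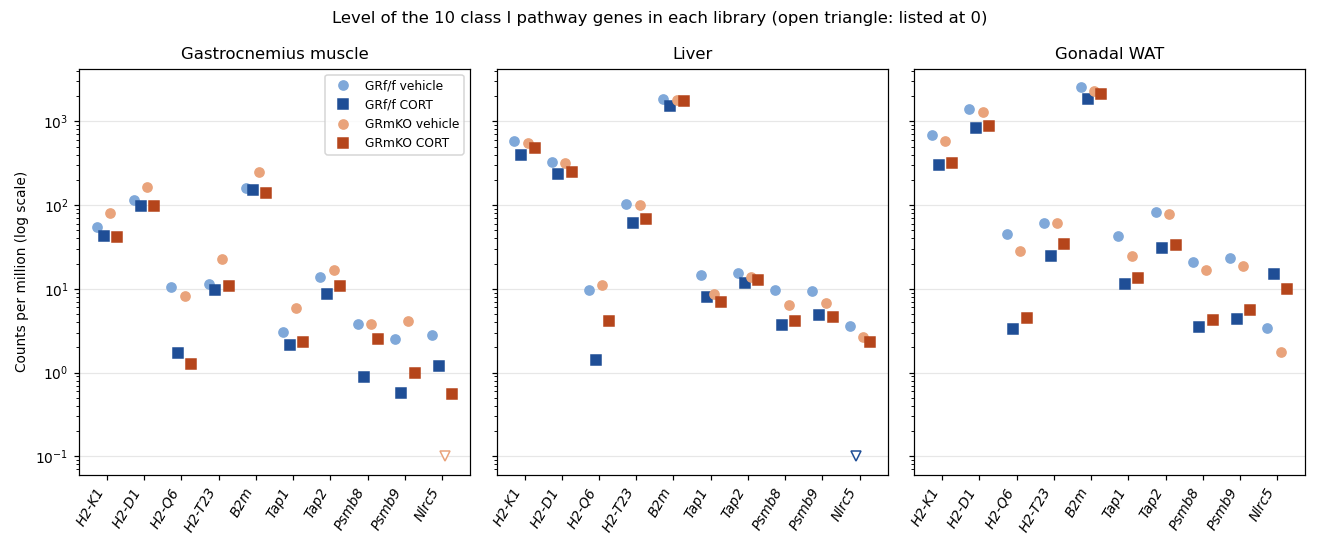
Level of each of the 10 genes in CPM (log scale) in the 4 libraries of each tissue, with circles for vehicle, squares for CORT, blue for GRf/f, orange for GRmKO and an open triangle where the gene was listed at 0. The CORT squares lie below the vehicle circles of the same genotype for 9 genes in every tissue, while Nlrc5 in gonadal WAT rises from 3.38 to 15.0 CPM in GRf/f.

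The first comparison set CORT against vehicle in each genotype. Log2 changes were computed after adding 0.5 CPM to both sides, and a gene was called when it differed by 2-fold or more (a log2 change of at least 1.0 in size). Only genes detected in each of a tissue's 4 libraries were compared, which kept 9 of the 10 in gastrocnemius and liver, *Nlrc5* being at 0 in 1 library of each, and all 10 in gonadal WAT. The 9 genes compared in every tissue were lower with CORT in all 6 comparisons of CORT with vehicle. Of the 11124 genes compared in every tissue, 7.18% did so. With normalisation factors in place of library totals 8 of the 9 did, *B2m* turning slightly positive. Brackets after a log2 change give its 95% exact interval on the ratio of counts without the added 0.5 CPM, which covers counting error only and neither mice nor pools.

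In gonadal WAT of GRf/f mice, 7 of the 10 genes fell by 2-fold or more with CORT and *Nlrc5* rose. There 8.07% of the 14218 genes compared were called lower and 5.49% higher. The median log2 change of the 10 was -1.35, against -0.073 over all genes. In GRmKO mice 4 of the 10 fell (*H2-Q6*, *Tap2*, *Psmb8* and *Psmb9*) and *Nlrc5* rose, where 5.63% of all genes were called lower and 3.47% higher, and the medians were -0.87 and -0.12. Of all calls in GRmKO WAT 38.2% were higher, against 51.2% or 54.5% with normalisation factors. The remaining heavy chain, light chain and transporter genes had log2 changes between -0.88 and -0.11 in GRmKO.

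In liver of GRf/f mice *H2-Q6* and *Psmb8* fell by 2-fold or more, which is 2 of 9 where 5.72% of the 12485 genes compared were called lower. In GRmKO liver only *H2-Q6* did, 1 of 9 against 2.82%. The median log2 changes of the 9 genes were -0.74 and -0.35, against 0.0048 and 0.049 over all genes. In gastrocnemius 3 of 9 fell in GRf/f mice (*H2-Q6*, *Psmb8* and *Psmb9*), where 4.72% of the 13543 genes compared were called lower. In GRmKO 4 of 9 fell (*H2-Q6*, *H2-T23*, *Tap1* and *Psmb9*) against 5.02%. The medians were -0.42 and -0.93, against -0.085 and -0.097 over all genes. Of all calls in GRmKO gastrocnemius 23.2% were higher, against 35.1% or 35.7% with normalisation factors.

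**Figure D2:**
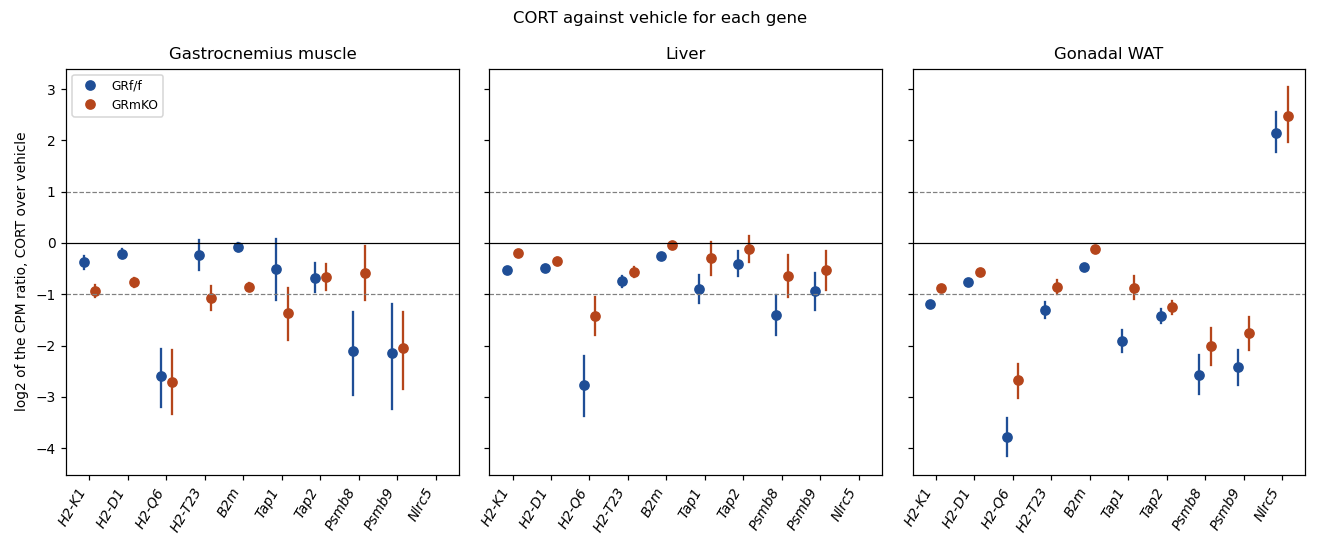
Log2 of the ratio of CPM without the added 0.5 CPM, CORT over vehicle, for each gene in GRf/f (blue) and GRmKO (orange), with lines for the 95% exact counting interval and dashed lines at 2-fold; Nlrc5 is not drawn in gastrocnemius and liver. H2-Q6, Psmb8 and Psmb9 have the lowest values in gonadal WAT, and Nlrc5 is the only gene above 0.

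The heavy chains fell unequally. *H2-Q6* encodes a non-classical class Ib heavy chain of the Qa-2 group, and it was the only one of the 10 genes called lower in all 6 comparisons. In gonadal WAT it measured 45.4 CPM in GRf/f vehicle and 3.32 in GRf/f CORT, 28.6 in GRmKO vehicle and 4.47 in GRmKO CORT. In liver the same order of libraries gave 9.65, 1.42, 11.2 and 4.17 CPM. In gastrocnemius it gave 10.4, 1.73, 8.23 and 1.26 CPM. Both CORT libraries lay below both vehicle libraries in each tissue. The level with CORT was 7.31% of vehicle in GRf/f WAT, 14.7% in GRf/f liver and 16.6% in GRf/f gastrocnemius, and 15.6%, 37.1% and 15.3% in GRmKO. The log2 changes were -3.59 (-4.16 to -3.42), -2.40 (-3.38 to -2.20) and -2.29 (-3.19 to -2.07) in GRf/f, and -2.55, -1.33 and -2.31 in GRmKO. Of all 11124 genes compared in every tissue, 9 were called lower in all 6 comparisons, namely *H2-Q6*, the MHC class II genes *H2-Aa*, *H2-Ab1*, *H2-Eb1*, *H2-DMa*, *H2-DMb1* and *Cd74*, the interferon-inducible GTPase gene *Tgtp2* and the clock gene *Dbp*. *H2-Q6* has near-identical neighbours, so that reads can be split between copies. The neighbouring *H2-Q7* measured 15.3, 1.18, 9.60 and 0.904 CPM in the same 4 WAT libraries, which is also lower in both CORT libraries.

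*H2-K1* and *H2-D1*, the classical heavy chains of this strain, moved less. *H2-K1* measured 683, 298, 585 and 318 CPM in gonadal WAT (GRf/f vehicle, GRf/f CORT, GRmKO vehicle, GRmKO CORT), a log2 change of -1.20 (-1.24 to -1.15) in GRf/f and -0.88 (-0.93 to -0.84) in GRmKO. *H2-D1* measured 1405, 823, 1300 and 883 CPM there, or -0.77 and -0.56. In liver *H2-K1* went from 579 to 399 CPM in GRf/f and from 557 to 485 CPM in GRmKO, and *H2-D1* from 329 to 236 and from 321 to 251 CPM. None of these liver differences reached 2-fold. In gastrocnemius the GRmKO vehicle library was the highest of the 4 for both genes, at 80.4 CPM for *H2-K1* and 166 CPM for *H2-D1*, and the 2 CORT libraries were close to each other, at 42.7 and 41.8 CPM for *H2-K1*.

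*H2-T23* encodes Qa-1, the non-classical molecule that binds NKG2 receptors of natural killer cells. It measured 60.9, 24.6, 61.9 and 34.0 CPM in gonadal WAT in the same order, with log2 changes of -1.29 (-1.46 to -1.16) in GRf/f and -0.85 in GRmKO. In liver the values were 103, 61.2, 101 and 67.9 CPM. In gastrocnemius they were 11.3, 9.62, 22.7 and 10.8 CPM, so that only the GRmKO vehicle library stood apart and the log2 change was -0.23 in GRf/f and -1.04 in GRmKO, which missed 2-fold with normalisation factors (-0.89 and -0.88). Sequence is shared among heavy chain genes, and the split of reads between them was not resolved here.

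*B2m* had the smallest log2 change of the genes compared in 5 of the 6 comparisons of CORT with vehicle, GRmKO gastrocnemius being the exception. It measured 2571, 1855, 2310 and 2136 CPM in gonadal WAT, 1832, 1526, 1795 and 1745 in liver, and 160, 152, 252 and 139 in gastrocnemius. Its log2 changes with CORT ran from -0.85 in GRmKO gastrocnemius to -0.041 in GRmKO liver, and none was called. Under normalisation factors its change in GRmKO WAT turned from -0.11 to 0.013 or 0.050, and in GRf/f gastrocnemius from -0.074 to 0.013 or 0.0040. In WAT heavy chain per light chain was lower with CORT: *H2-K1* stood at 26.6 CPM per 100 CPM of *B2m* in GRf/f vehicle WAT and at 16.1 with CORT, and at 25.3 and 14.9 in GRmKO. In liver the same ratio was 31.6 and 26.2 in GRf/f and 31.0 and 27.8 in GRmKO. In gastrocnemius it was 34.8 and 28.2 in GRf/f, and in GRmKO 31.9 (30.2 to 33.8) and 30.0 (27.8 to 32.4), with overlapping counting intervals. *H2-D1* per 100 CPM of *B2m* was higher with CORT in GRmKO gastrocnemius, at 65.8 and 69.9, and lower in GRf/f, at 71.3 and 64.95. The counting intervals overlapped in both pairs.

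*Tap1* measured 42.4 CPM in GRf/f vehicle WAT, 11.3 with CORT, 24.4 in GRmKO vehicle and 13.4 with CORT. Its log2 change was -1.86 (-2.12 to -1.69) in GRf/f and -0.85 (-1.09 to -0.65) in GRmKO, and the 2 vehicle libraries themselves differed by -0.78 between genotypes. *Tap2*, the partner chain, measured 81.7, 30.5, 79.4 and 33.2 CPM, or -1.41 (-1.56 to -1.29) and -1.25 (-1.39 to -1.13). In liver *Tap1* measured 14.8, 7.94, 8.64 and 7.04 CPM, the GRf/f vehicle library being the high one, and *Tap2* stayed between 11.7 and 15.5 CPM. In gastrocnemius *Tap1* measured 3.06, 2.16, 5.95 and 2.31 CPM and *Tap2* 14.0, 8.78, 16.98 and 10.8 CPM. Only the *Tap1* change in GRmKO gastrocnemius, -1.20 (-1.89 to -0.87), passed 2-fold outside WAT.

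*Psmb8* (β5i) and *Psmb9* (β1i) encode the catalytic subunits that take the places of *Psmb5* and *Psmb6* in the immunoproteasome. In gonadal WAT *Psmb8* measured 20.8, 3.49, 16.9 and 4.197 CPM and *Psmb9* 23.1, 4.31, 18.6 and 5.52 CPM. Both CORT libraries lay far below both vehicle libraries, with log2 changes of -2.41 (-2.95 to -2.19) and -1.89 (-2.37 to -1.66) for *Psmb8* and of -2.29 (-2.77 to -2.08) and -1.67 (-2.08 to -1.45) for *Psmb9*, in GRf/f and GRmKO. In liver *Psmb8* measured 9.79, 3.72, 6.46 and 4.15 CPM and *Psmb9* 9.40, 4.89, 6.77 and 4.67 CPM. Only the *Psmb8* change in GRf/f liver, -1.29 (-1.80 to -1.01), was called. In gastrocnemius levels were low: *Psmb8* measured 3.79, 0.879, 3.82 and 2.54 CPM and *Psmb9* 2.52, 0.568, 4.09 and 0.983 CPM. *Psmb8* fell in GRf/f (-1.64, -2.96 to -1.34) and differed by -0.51 (-1.12 to -0.06) in GRmKO, while *Psmb9* fell in both, with log2 changes of -1.501 and -1.629.

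The constitutive partners were not called. *Psmb5*, *Psmb6* and *Psmb7* lay between 61.6 and 135 CPM in all 12 libraries, and none of the 3 reached 2-fold in a comparison of CORT with vehicle. *Psmb8* stood at 26.4 CPM per 100 CPM of *Psmb5* in GRf/f vehicle WAT and at 4.40 with CORT, and at 25.9 and 4.91 in GRmKO. *Psmb9* per 100 CPM of *Psmb6* went from 21.4 to 5.57 and from 18.6 to 5.96. The same held for *Psmb10*, the third immunoproteasome catalytic subunit and not 1 of the 10 genes, which stood at 34.5 and 15.7 CPM per 100 CPM of *Psmb7* in GRf/f WAT and at 42.3 and 19.5 in GRmKO. In liver *Psmb8* per 100 of *Psmb5* was 15.5 and 5.66 in GRf/f and 10.5 and 5.64 in GRmKO. In gastrocnemius it was 5.84 and 1.41 in GRf/f and 4.90 and 3.15 in GRmKO, the last pair having counting intervals that overlap (3.87 to 6.20 and 2.36 to 4.18).

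**Figure D3:**
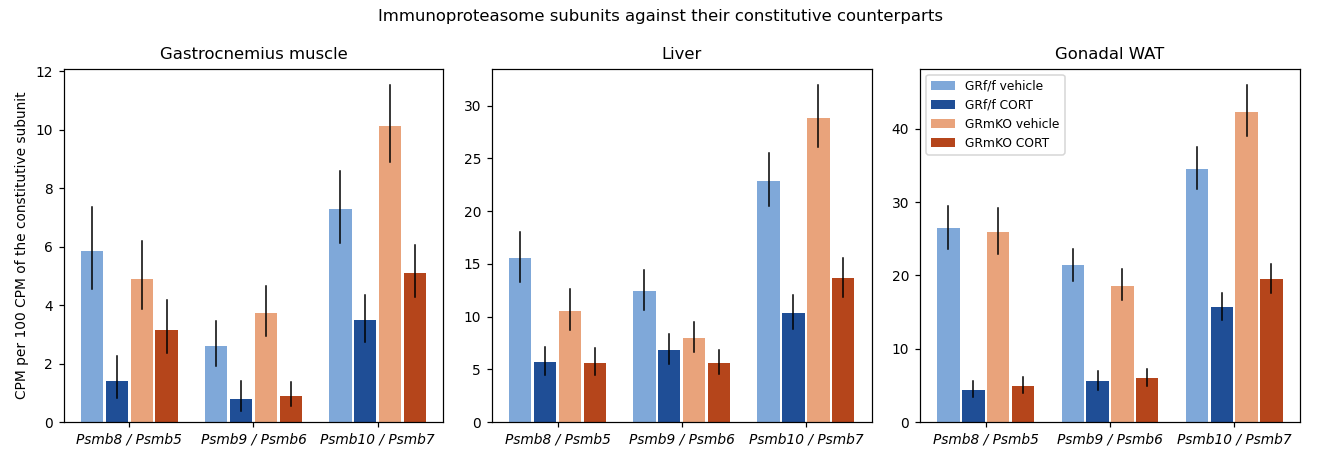
CPM of each immunoproteasome subunit per 100 CPM of its constitutive counterpart in the 4 libraries of each tissue (bars), with lines for the 95% exact counting interval and a separate scale for each tissue. Each CORT bar is lower than the vehicle bar of the same genotype, and Psmb8 per 100 of Psmb5 in gonadal WAT falls from 26.4 to 4.40 in GRf/f.

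*Nlrc5* encodes the transactivator of class I genes, and went the other way in WAT. There it measured 3.38 CPM in GRf/f vehicle and 15.0 with CORT, and 1.77 in GRmKO vehicle and 9.88 with CORT, log2 changes of 1.99 (1.77 to 2.56) and 2.19 (1.96 to 3.04). In gastrocnemius it measured 2.81, 1.19, 0 and 0.551 CPM, and in liver 3.60, 0, 2.70 and 2.29 CPM. The entry in WAT was another transcript of the gene (7578 bases in 53 exons) than in gastrocnemius and liver (6945 bases in 49 exons), and each entry bears the identifier of 1 transcript. Whether its value is that transcript's alone or was summed over the gene is not settled by the sources used here. A shift between transcripts and a change of the whole gene therefore cannot be told apart, and the 0 entries are subject to the same limit. *Psmb8* was likewise represented by a transcript of 1628 bases in WAT and 840 bases elsewhere.

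CORT changes differed between the genotypes. In liver the change of all 9 genes compared, and in gonadal WAT that of all 10, was lower in GRf/f than in GRmKO, where 54.4% and 45.2% of all genes compared had that order. The gap was widest for *H2-Q6* in both tissues, at -1.08 in liver and -1.04 in WAT on the log2 scale, with *Tap1* next in WAT at -1.02. In gastrocnemius 2 of 9 had that order, against 45.9% of all genes. *Psmb8* was the main exception there, with a gap of -1.13. With 1 library per group these differences of differences have no replicate check.

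The second comparison set GRmKO against GRf/f under the same treatment. It shares its libraries with the comparisons above, so it adds no independent evidence to them. In gastrocnemius under vehicle none of the 9 genes was called, where 7.77% of all genes were called in either direction and 4.59% higher. Even so 8 of 9 lay higher in GRmKO, with log2 differences of 0.97 (0.77 to 1.24) for *H2-T23*, 0.86 (0.50 to 1.43) for *Tap1* and 0.65 (0.59 to 0.72) for *B2m*, and a median of 0.54 against 0.072 over all genes. Of all genes 44.1% lay lower in that comparison. *Psmb8* at 0.010 changed sign under normalisation factors. Under CORT the median was 0.079 and *Psmb8* alone was called, at 1.14 (0.73 to 2.43), 1 of 9 where 4.4% of all genes were called higher. With 1 CPM added in place of 0.5 its difference was 0.91, below 2-fold.

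In liver none of 9 was called under vehicle, where 2.3% of all genes were called. The largest difference was that of *Tap1*, at -0.74 (-1.05 to -0.51), followed by *Psmb8* at -0.57. Under CORT *H2-Q6* was higher in GRmKO by 1.28 (0.94 to 2.22), 1 of 9 where 2.44% of all genes were called higher. In gonadal WAT none of 10 was called under either treatment, where 2.22% and 2.62% of all genes were called. Under vehicle 9 of 10 lay lower in GRmKO (median -0.26) and under CORT 9 of 10 lay higher (median 0.22), *H2-T23* under vehicle (0.022, or -0.011 under median-of-ratios factors) and *Nlrc5* under CORT being the exceptions. Of all genes in WAT 45.4% lay lower under vehicle (median 0.023) and 54.5% under CORT (median -0.030). The differences of the 10 genes were small, between -0.78 and 0.46.

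**Figure D4:**
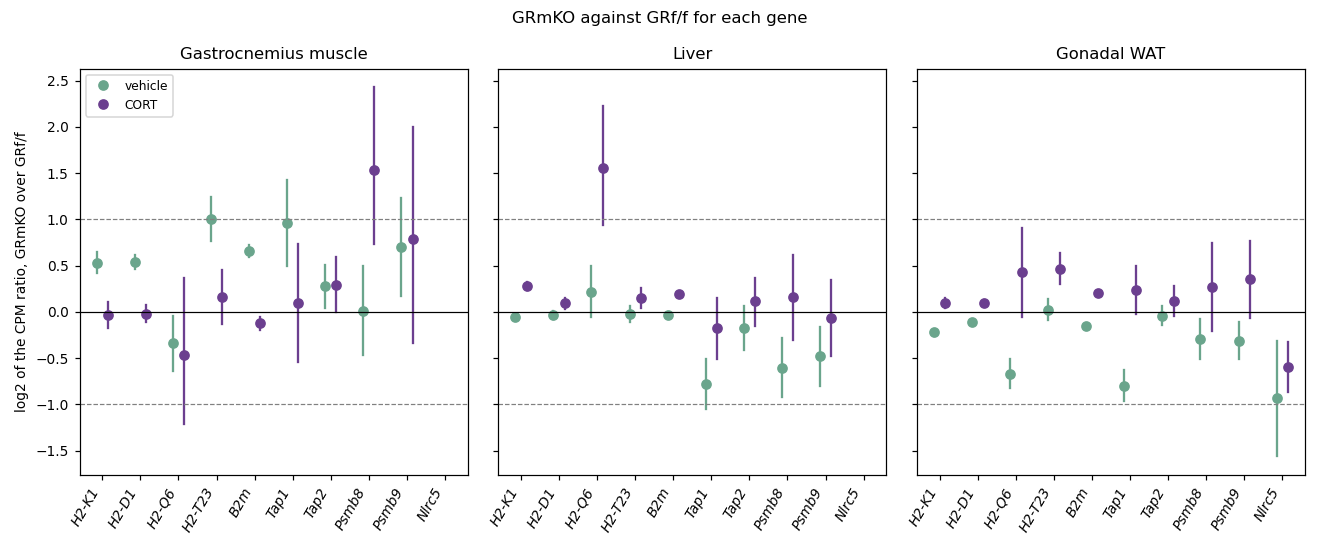
Log2 of the ratio of CPM without the added 0.5 CPM, GRmKO over GRf/f, for each gene under vehicle (green) and under CORT (purple), with lines for the 95% exact counting interval and dashed lines at 2-fold; Nlrc5 is not drawn in gastrocnemius and liver. In gastrocnemius under vehicle 8 of 9 genes lie above 0, and Psmb8 in gastrocnemius and H2-Q6 in liver pass 2-fold under CORT.

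Other genes of the class I pathway were compared from lists. Of 15 other class I heavy chain genes, 11 were compared in gonadal WAT, and 4 fell and none rose with CORT in GRf/f. Of all genes in GRf/f WAT 8.07% were called lower and 5.49% higher. *H2-Q10*, a secreted class I molecule of liver, went from 40.9 to 3.87 CPM in GRf/f but stood at 10.6 and 10.1 CPM in GRmKO vehicle and CORT, while *H2-Q4* went from 79.0 to 12.6 CPM in GRf/f and from 62.8 to 15.4 CPM in GRmKO. In gastrocnemius 2 of 11 fell and 1 rose in GRf/f, where 4.72% of all genes were called lower and 3.26% higher. In GRmKO gastrocnemius 1 of 11 fell and 1 rose, against 5.02% and 1.51%. *Cd1d1* rose from 1.61 to 6.44 CPM in GRf/f gastrocnemius and *H2-Q10* from 1.33 to 6.255 CPM in GRmKO gastrocnemius. *Cd1d1* was lower with CORT in 0 of the 6 comparisons. The 8 genes of peptide loading and trimming had a median log2 change of 0.11 in GRf/f WAT and none fell by 2-fold. *Hspa5*, the chaperone BiP, rose from 279 to 596 CPM in GRf/f WAT and from 413 to 1018 CPM in GRf/f liver, where 5.9% of all genes were called higher. In GRmKO it stood at 367 and 422 CPM in WAT and at 561 and 549 CPM in liver. Among the 5 other immunoproteasome and activator genes *Psmb10* alone fell by 2-fold, in GRf/f WAT (38.0 to 16.4 CPM) and GRf/f liver (18.7 to 9.09 CPM). The 25 genes of interferon signalling and class I transcription had a median near 0 in GRf/f WAT, at 0.0063, with 3 lower and 1 higher. *Irf9*, a subunit of the interferon-activated factor ISGF3, fell there from 19.4 to 1.60 CPM and stood at 7.86 and 7.99 CPM in GRmKO vehicle and CORT. *Nfya*, a subunit of the factor that binds CCAAT, rose from 2.39 to 8.38 CPM in GRf/f, although the GRmKO vehicle library held 24.5 CPM of *Nfya*.

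Interferon-stimulated genes were also lower with CORT. In gonadal WAT 15 of 18 compared fell in GRf/f and 9 of 18 in GRmKO, with medians of -1.66 and -1.02 and none higher. Of all genes 8.07% and 5.63% were called lower there. *Iigp1*, an interferon-inducible GTPase, went from 42.8 to 3.79 CPM in GRf/f. In liver 12 of 18 and 5 of 18 fell, against 5.72% and 2.82% of all genes. In gastrocnemius 5 of 19 and 3 of 19 fell, against 4.72% and 5.02%. The gastrocnemius medians were -0.55 in GRf/f and -0.32 in GRmKO, an order opposite to that of the class I medians of -0.42 and -0.93. The MHC class II genes fell further as a sum than the class I genes. Their sum went from 1576 to 188 CPM in GRf/f WAT and from 1945 to 362 CPM in GRmKO WAT. In liver it went from 133 to 8.48 and from 122 to 21.0 CPM, and in gastrocnemius from 218 to 11.5 and from 568 to 52.3 CPM. Single genes differed: *H2-Q6* changed by -3.59 in GRf/f WAT, where the lowest class II change was -3.34.

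Markers of several cell types moved in the same libraries. Of all genes compared in WAT, 8.07% were called lower with CORT in GRf/f and 5.63% in GRmKO, and 5.49% and 3.47% higher. In gonadal WAT all 8 T and NK cell markers compared fell in GRf/f, their sum going from 17.8 to 1.43 CPM, and 6 of 8 in GRmKO, from 16.5 to 2.73 CPM. *Lck*, *Ncr1* and *Nkg7* were at 0 in the GRf/f CORT library. B cell markers fell 4 of 4 in both genotypes, from 10.5 to 1.46 and from 15.9 to 3.81 CPM. The T cell marker *Cd4* and the B cell marker *Ms4a1* stood at 0.1005 CPM in the GRf/f CORT library, where 3 counts correspond to 0.151 CPM. Dendritic cell markers fell 4 of 6 in GRf/f, from 43.2 to 22.97 CPM, and 3 of 6 in GRmKO, from 43.0 to 28.2 CPM. Endothelial markers fell 5 of 6 in GRf/f, from 670 to 248 CPM, and 1 of 6 in GRmKO, from 604 to 332 CPM. Macrophage markers did the opposite, 4 of 9 rising in GRf/f (1165 to 2568 CPM) and 1 of 9 in GRmKO (1422 to 2535 CPM). None of 4 leukocyte markers compared was called. *Ptprc*, the CD45 gene of all leukocytes, was listed at 14.6, 0, 24.04 and 18.2 CPM, with the same doubt on what an entry sums. The part of these cell types in the class I values was not tested.

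In liver the macrophage markers fell 7 of 9 in GRf/f, from 238 to 82.8 CPM, and 1 of 9 in GRmKO, from 195 to 126 CPM, and the leukocyte markers 5 of 5 and 4 of 5. Of all genes 5.72% and 2.82% were called lower in liver. *Ptprc* there measured 3.85, 1.02, 3.25 and 1.2 CPM. In gastrocnemius the GRmKO vehicle library, where the class I sum was highest (559 CPM, against 308 to 377 CPM in the others), exceeded the GRf/f vehicle library by 2-fold or more in 8 of 9 macrophage markers, 4 of 4 leukocyte markers compared and 6 of 7 MHC class II genes compared. Of all genes 4.59% were called higher in that comparison. The macrophage markers fell 9 of 9 in GRmKO gastrocnemius with CORT and 0 of 9 in GRf/f, where 5.02% and 4.72% of all genes were called lower. *Ptprc* measured 2.81, 0.908, 4.56 and 0 CPM in gastrocnemius. Whether these markers account for the class I difference of that library was not tested.

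**Figure D5:**
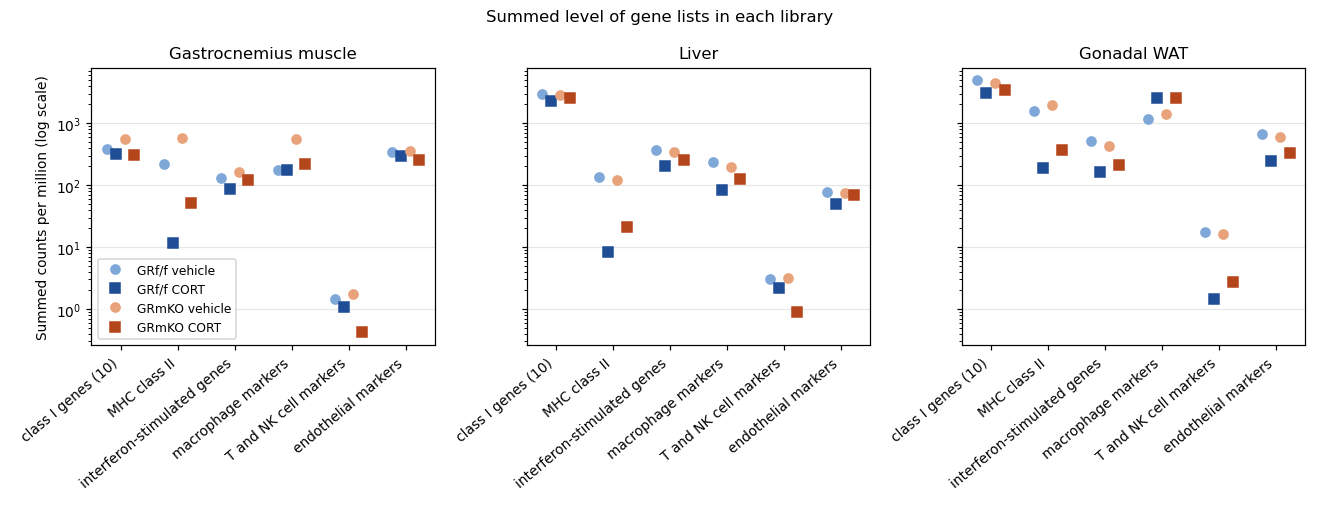
Summed CPM (log scale) of the 10 class I pathway genes and of 5 other gene lists in the 4 libraries of each tissue, circles for vehicle, squares for CORT, blue for GRf/f, orange for GRmKO. In gonadal WAT the class I sum goes from 4937 to 3069 CPM in GRf/f while macrophage markers go from 1165 to 2568 CPM and endothelial markers from 670 to 248 CPM.

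The genes most like the class I genes were sought by profile. For each gene compared in all tissues with a mean of at least 5 CPM in each, log2(CPM + 0.5) minus the tissue mean was taken over the 12 libraries. Its root mean square distance to the median profile of the 9 class I genes was then ranked over 6596 candidates. Among the 5 nearest were *Clec14a* (0.13), *Tie1* (0.14), *Pald1* (0.14) and *Esam* (0.14). *Clec14a*, *Tie1* and *Esam* are known as endothelial genes. In GRf/f WAT the log2 changes of *Clec14a*, *Tie1*, *Pald1* and *Esam* with CORT were -1.55, -1.77, -1.44 and -1.66, and in GRmKO WAT -0.96, -1.34, -1.12 and -1.28. In liver they were -0.475, -0.833, -0.278 and -0.358 in GRf/f and -0.08, -0.33, 0.028 and -0.303 in GRmKO. Of the 6 endothelial markers in liver, 4 lay lower and 2 higher with CORT in each genotype. *Pecam1* rose there from 2.42 to 6.29 CPM in GRf/f and *Tek* from 2.535 to 8.93 CPM in GRmKO, while *Kdr* fell from 29.9 to 13.3 CPM in GRf/f. The part of endothelial cells in the class I values was not tested.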

How the data were processed

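Total RNA from 3 tissues was sequenced by the authors as 100-base paired reads, 1 library per group. The authors quantified reads with Salmon 1.2.1 on GENCODE protein-coding transcripts (mm10, that is GRCm38) and imported them in R 3.5.0 with tximport with length scaling. What the authors deposited are thus expected counts, not scaled between libraries, and 1 entry, bearing 1 transcript identifier, was retained per gene name (whether values were summed over a gene's transcripts is not settled). Positions came from GENCODE M21, which held every transcript identifier, and promoters from RefSeq.

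CPM was computed over the library total with Python 3.11.15, numpy 2.4.6, pandas 2.3.3 and scipy 1.17.1, and figures with matplotlib 3.10.9. No p-value is given, since no group was replicated. A gene was called at a 2-fold difference after adding 0.5 CPM, among genes detected in each of a tissue's 4 libraries, and 95% exact (Clopper-Pearson) intervals of ratios, on counts rounded to whole numbers, cover counting error only. The script was tested on simulated data. Alternatives were TMM factors (edgeR 4.0.16), median-of-ratios size factors (DESeq2 1.42.0), other added values, filters and folds, and the authors' method, NOISeq without replicates (probability of 0.9), rewritten here with numba 0.67.0.

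The 10 genes and the 16 other lists were chosen with earlier results of these data known. Named in the text are all 10 genes, *Nr3c1* in gastrocnemius, *Psmb5*, *Psmb6*, *Psmb7* and *Ptprc*, the 5 nearest profiles (1 of which is not reported here) and, from each other list, the genes of largest rise or fall past 2-fold, of which a selection is printed. *H2-Q4* and *H2-Q7* in WAT, the genes lower in all 6 comparisons, and the *Psmb10* ratios were chosen after their values were seen.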

Additional observations from a re-analysis of the deposited data

How the results depend on the processing

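With 1 library per group, neither the spread between mice nor that between pools is known, and no library could be left out. No paired analysis was possible because the groups compared share fewer than 2 replicate numbers and the results come from no test. An additive fit of treatment and genotype over the 4 libraries of a tissue, which would treat the 2 genotypes as replicates of treatment, was not made. Of 96 counts of called genes recomputed under 8 alternatives, 80 stayed within 1.5 times the count given, and of 448 log2 changes recomputed under 4 alternatives, 436 kept their direction and their side of 2-fold, 9 changed sign and 3 no longer passed 2-fold.

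A 1.5-fold threshold gave 8 genes in gastrocnemius for CORT in GRmKO (4 at 2-fold), 4 for genotype under vehicle in gastrocnemius (0), 5 in liver for CORT in GRf/f (2), 1 in liver for genotype under vehicle (0), 8 in WAT for CORT in GRmKO (5) and 3 in WAT for genotype under vehicle (0). NOISeq called fewer: 1 in gastrocnemius for CORT in GRf/f (3), 0 for genotype under CORT in gastrocnemius (1), 1 in liver for CORT in GRf/f (2), 0 for CORT in GRmKO liver (1) and 0 for genotype under CORT in liver (1). Without the filter, or with a mean of at least 1 CPM in its place, *Nlrc5* entered and gave 1 gene for genotype under vehicle in gastrocnemius (0) and 2 for genotype under CORT in liver (1). Adding 1 CPM gave 0 for genotype under CORT in gastrocnemius (1). The causes of the other differences were not tested.

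TMM and median-of-ratios factors moved the median of all genes by 0.138 and 0.144 for CORT in GRmKO gastrocnemius and by 0.115 and 0.147 for CORT in GRmKO WAT. The share of higher genes among all calls went from 23.2% to 35.1% and 35.7%, and from 38.2% to 51.2% and 54.5%. Changes of sign were those of *B2m* with CORT in GRf/f gastrocnemius (0.013 and 0.004) and GRmKO WAT (0.013 and 0.050), *Psmb8* for genotype under vehicle in gastrocnemius (-0.060 and -0.032), and, under median-of-ratios factors alone, *H2-K1* (0.005) and *H2-D1* (0.018) for genotype under CORT in gastrocnemius and *H2-T23* (-0.011) for genotype under vehicle in WAT.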
